A study of Mus musculus with 74 samples.

Results

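The genes of glycolysis and of the response to low oxygen were followed across 74 single cells of the mouse pro-epicardial organ. The set holds 34 of the 30323 genes in the table and was chosen by name. It covers glucose uptake, each enzymatic step to pyruvate, the fate of pyruvate, the PFKFB regulators of phosphofructokinase, and hypoxia response genes. Cells of this short-lived outgrowth near the venous pole of the embryonic heart spread over the heart and form the epicardium. Cells came from C57BL/6 embryos at embryonic day 9.5 that carried Tbx18Cre and the mTmG membrane colour reporter, were sorted by flow cytometry, and were amplified from polyA RNA with SMARTSeq V4 and Nextera XT. All cells have the same genotype and stage and none was treated. They are described as labelled by Tbx18Cre, so cells in which that Cre had not acted are not represented, with the gate not given in the sources used here. Since no label ties a cell to an embryo, the 74 cells are 1 sample: no test was made, no p-value is given, and errors are standard deviations (SD) over cells.

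Glycolysis splits glucose into pyruvate in the cytosol. Pyruvate is then either reduced to lactate and exported or oxidised by pyruvate dehydrogenase in mitochondria. Many steps are served by isoenzymes from separate genes that differ between tissues. Phosphofructokinase M and P and enolase 3, for example, are used in muscle, brain or both, and lactate dehydrogenase A in many growing cells. The transcription factor HIF-1 is stabilised when oxygen is low, because prolyl hydroxylases (EGLN proteins) then stop marking its alpha subunit for degradation. It binds short ACGTG or GCGTG sites and raises many glycolytic genes. Early embryonic heart tissue is known for a strong reliance on glycolysis, which gives way to oxidation of pyruvate and fatty acids as cardiomyocytes mature.

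Levels are given as CPM, a gene's estimated counts scaled to a common total per cell, and between genes as CPM per kb of transcript. Cells were divided by 2 genes. The Lhx9 state held 32 cells with at least 5 Lhx9 counts. The Actc1 state held 21 cells with at least 500 CPM of Actc1, the cardiac actin gene. A further 2 cells met both rules and 19 met neither. The nearest cells to the Lhx9 threshold had 2 and 15 counts, and those nearest to the Actc1 threshold had 420 and 530 CPM. Total counts ran from 216177 to 2618538, with state medians of 810674 (Lhx9), 826085 (Actc1) and 1088057 (neither). As a check of the labelled cell type, Tbx18 was detected (5 or more counts) in 69 of 74 cells and the epicardial factor Wt1 in 60. The summed level of 15 epicardial markers ran from 0.101% to 0.603% of counts in the Lhx9 state, 0.0249% to 0.361% in the Actc1 state and 0.0273% to 0.313% in the cells with neither. The 16 cardiomyocyte markers summed to 0.174% to 4.12% in the Actc1 state, 0.0207% to 0.305% in the Lhx9 state and 0.0185% to 0.453% in the cells with neither. All 16 were detected in at least 1 Actc1-state cell, whereas Myh7, Pln and Nppa were detected in no Lhx9-state cell. The 11 septum transversum markers summed to 0.0692% to 0.313%, 0.123% to 0.515% and 0.140% to 0.444% in the Lhx9 state, the Actc1 state and the cells with neither. Of these 11 markers, 2 were past 2-fold higher and 5 lower in the Actc1 state than in the cells with neither (7.62% and 9.09% of all genes). Between the Actc1 and the Lhx9 state, 4 were higher and 4 lower (10% and 8.55% of all genes). Between the Lhx9 state and the cells with neither, 0 were higher and 8 lower (7% and 10.3% of all genes). Of the 15 epicardial markers, 10 were higher and 1 lower in that comparison. The part of these marker groups in the differences below was not tested. Markers of endothelial, erythroid, hepatoblast and leukocyte cells summed to at most 0.0307%, 0.0501%, 0.0314% and 0.00450% in any cell. Of 9 endothelial markers, Cdh5, Tie1, Emcn, Cldn5 and Sox18 were detected in no cell, whereas Egfl7 was detected in 67 cells, Pecam1 in 62, Tek in 52 and Kdr in 8. The erythroid marker Slc4a1, the hepatoblast markers Afp, Hnf4a, Foxa2 and Serpina1a and the leukocyte markers Adgre1, Tyrobp, Fcer1g and Laptm5 were detected in none, whereas Hba-a1 was detected in 30 cells, Alb in 20, Cd68 in 10, Apoa2 in 9 and Klf1 in 8. Between the Actc1 and the Lhx9 state, Alb and Apoa2 were past 2-fold higher and Kdr, Tek and Cd68 lower in the Actc1 state. The part of these genes in the differences below was not tested either.

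The 34 genes together took 3.51 ± 0.979% of a cell's counts (SD, n = 74 cells), from 1.59% to 6.46%. The share was 3.57 ± 0.705% in the Lhx9 state, 3.68 ± 1.34% in the Actc1 state and 3.10 ± 0.788% in the cells with neither, so the states overlapped and differed by less than 1 SD. Of the 34 genes, 14 were detected in all 74 cells, 22 in at least 90% of cells and 6 in under 50%. Per length, the order was led by 9 enzymes that each averaged at least 300 CPM per kb. Gapdh, which makes the first energy-rich phosphate bond, led with 5049 ± 1278 CPM per kb. Ldha, which turns pyruvate into lactate, came next with 3250 ± 1338 CPM per kb. Eno1 (2683 ± 733), Aldoa (1999 ± 723), Pkm (1779 ± 465), Tpi1 (1272 ± 475), Pgam1 (982 ± 259), Pgk1 (630 ± 267) and Gpi1 (344 ± 175 CPM per kb) followed. Neighbours in this order differed by more than the larger of their SDs between Gapdh and Ldha, Pkm and Tpi1, Pgam1 and Pgk1, and Pgk1 and Gpi1, and by less elsewhere. All 9 were detected in every cell.

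**Figure D1:**
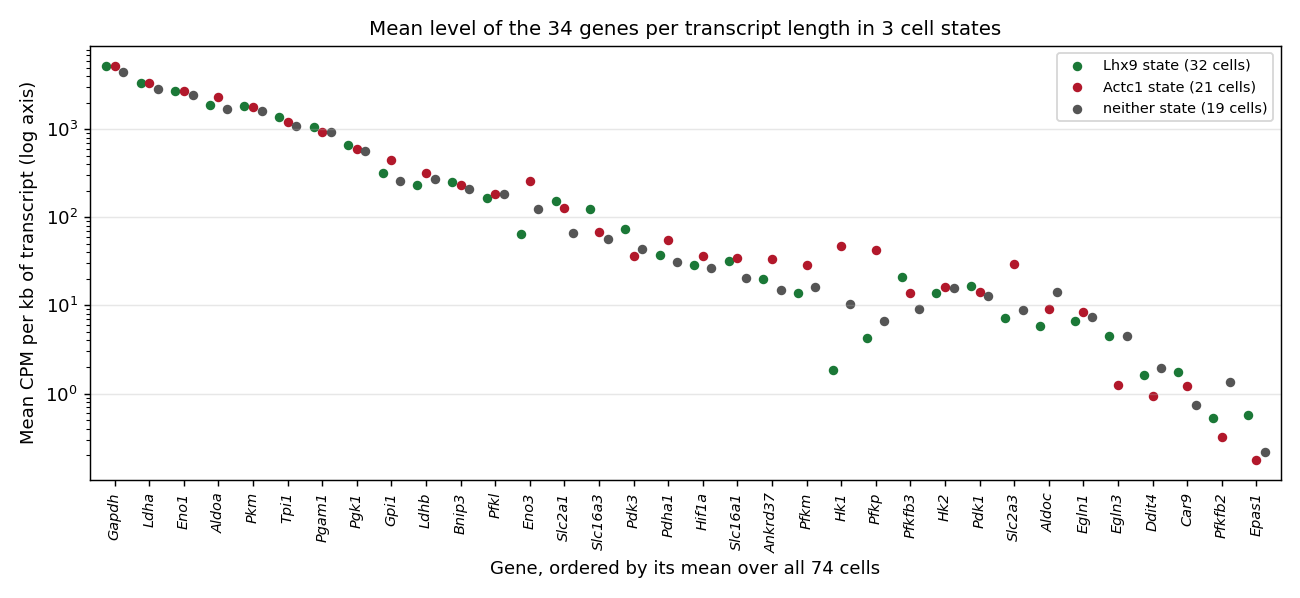
Mean level of each of the 34 genes in CPM per kb of transcript (y axis, log scale) in the Lhx9 state (32 cells), the Actc1 state (21 cells) and the cells with neither (19 cells); the 2 cells with both are not drawn. The 9 most abundant enzymes lie close together in the 3 states, and the widest gaps are those of Hk1 and Pfkp.

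The remaining genes lay lower. Ldhb, the other lactate dehydrogenase subunit, averaged 263 ± 156 CPM per kb. Bnip3, a mitophagy receptor and HIF target, followed with 238 ± 156 CPM per kb and Pfkl, the main phosphofructokinase, with 178 ± 83.1 CPM per kb. The first step was among the lowest of the pathway in mRNA: Hk1 averaged 17.1 ± 35.8 and Hk2 14.9 ± 10.6 CPM per kb. At the foot were Egln3, Ddit4, Car9, Pfkfb2 and Epas1, each below 4 CPM per kb. Epas1, which encodes HIF-2 alpha, was detected in 4 of 74 cells (5.41%, exact Clopper-Pearson 95% interval 1.49% to 13.3%, counting error only). Car9, a carbonic anhydrase that is a strong HIF target, was detected in 10 cells, Ddit4, a stress-induced inhibitor of mTORC1, in 15, and Egln3 in 22.

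Of the glucose transporters in the set, Slc2a1 (GLUT1), the broadly used one, was the more abundant. Slc2a1 ran from 55.7 to 1670 CPM in the Lhx9 state (median 457), from 80.1 to 1665 CPM in the Actc1 state (median 313) and from 0 to 546 CPM in the cells with neither (median 207). The Lhx9-state and Actc1-state cells reached levels that no cell with neither reached, but the ranges overlapped. Mean Slc2a1 was 504 ± 309, 414 ± 379 and 214 ± 160 CPM in that order, a 2.35-fold higher mean in the Lhx9 state than in the cells with neither. Slc2a3 (GLUT3), a high-affinity transporter known from neurons and trophoblast, ran from 0 to 90.8 CPM in the Lhx9 state (median 21.1), from 0 to 536 CPM in the Actc1 state (median 44.0) and from 0 to 153 CPM in the cells with neither (median 25.3). A minority of Actc1-state cells carried the high Slc2a3 values, as its mean of 116 ± 158 CPM against a median of 44.0 CPM shows. The mean was 4.05-fold that of the Lhx9 state (28.6 ± 28.6 CPM) and 3.34-fold that of the cells with neither (34.7 ± 40.4 CPM), and an Actc1-state cell was higher in 61.5% of cell pairs with the Lhx9 state. Per length, Slc2a1 made up 94.8 ± 6.44% of the pair in the Lhx9 state, 79.7 ± 24.8% in the Actc1 state and 85.0 ± 16.3% in the 17 cells with neither that had either gene.

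The hexokinase step differed most between states. Hk1 (chr10:62268855-62379908, minus strand, GRCm38) encodes the broadly used enzyme that is bound to mitochondria, and Hk2 (chr6:82725025-82774454, minus strand) the insulin- and hypoxia-responsive one. Hk1 ran from 0 to 42.2 CPM in the Lhx9 state (median 2.17), from 0 to 844 CPM in the Actc1 state (median 106) and from 0 to 152 CPM in the cells with neither (median 33.2). Low values occurred in every state, while high values above those of all other cells occurred in the Actc1 state. Mean Hk1 was 7.09 ± 11.3 CPM in the Lhx9 state, 182 ± 218 CPM in the Actc1 state and 40.2 ± 37.1 CPM in the cells with neither. The Actc1 state was thus 25.7-fold above the Lhx9 state and 4.53-fold above the cells with neither, and an Actc1-state cell had more Hk1 than a Lhx9-state cell in 87.6% of pairs. Within the Actc1 state, Hk1 averaged 50.3 ± 46.7 CPM in the 8 cells with 500 to 2000 CPM of Actc1 and 263 ± 244 CPM in the 13 cells with 2000 CPM or more. The log2 ratio of Actc1 to Lhx9 state lay between 3.49 and 5.08 over 16 other settings.

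Hk2 did not share this pattern. It ran from 25.1 to 174 CPM in the Lhx9 state (median 71.5), from 5.05 to 242 CPM in the Actc1 state (median 71.6) and from 0 to 254 CPM in the cells with neither (median 72.5). The medians were nearly equal and the ranges overlapped almost wholly. The Hk1 share of hexokinase per length was therefore 10.7 ± 16.2% in the Lhx9 state, 58.0 ± 34.1% in the Actc1 state and 40.7 ± 26.7% in the cells with neither. Hk1 exceeded Hk2 in 1 of 32 Lhx9-state cells, 13 of 21 Actc1-state cells and 5 of 18 cells with neither that had either gene. Over all cells the mean Hk1 share was 32.5%, and 53.4% when the cells' levels were summed first, which gives cells with more hexokinase mRNA more weight.

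**Figure D2:**
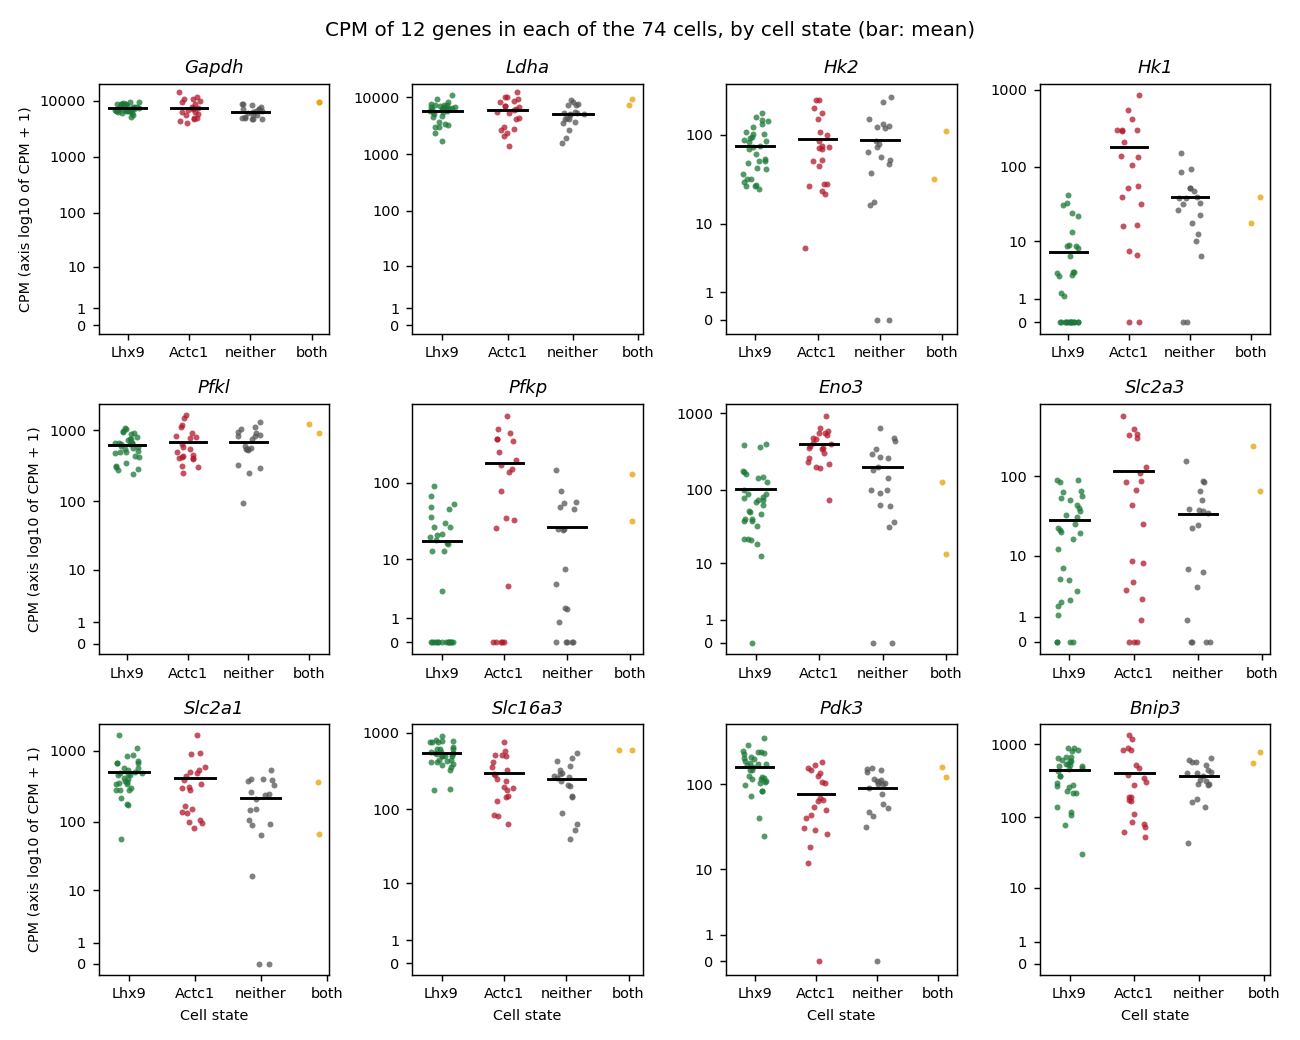
CPM of 12 genes in each cell (points, y axis log10 of CPM + 1) by state, with the state mean as a black bar; the 2 cells with both are drawn without a mean. Hk1, Pfkp, Eno3 and Slc2a3 reach higher values in the Actc1 state, Slc16a3 and Pdk3 have higher means in the Lhx9 state, and Gapdh, Ldha and Hk2 overlap throughout.

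Phosphofructokinase, the committed step, was mostly Pfkl. Pfkl reached 1071 CPM in the Lhx9 state, 1659 CPM in the Actc1 state and 1304 CPM in the cells with neither, with means of 615 ± 229, 688 ± 394 and 678 ± 317 CPM. These means lay within 1 SD of each other. Pfkp (chr13:6579768-6648777, minus strand), the platelet form, ran from 0 to 90.7 CPM in the Lhx9 state (median 13.0), from 0 to 696 CPM in the Actc1 state (median 137) and from 0 to 146 CPM in the cells with neither (median 7.23). Each state had cells without Pfkp, and the cells above 146 CPM were all of the Actc1 state. Its mean of 178 ± 198 CPM was 9.96-fold that of the Lhx9 state (17.8 ± 22.8 CPM) and 6.47-fold that of the cells with neither (27.4 ± 37.9 CPM). Pfkm, the muscle form, averaged 39.3 ± 44.0 CPM in the Lhx9 state, 83.3 ± 66.7 CPM in the Actc1 state and 46.2 CPM in the cells with neither, and was 2.12-fold higher in the Actc1 than in the Lhx9 state. The Pfkl share per length was 89.9 ± 8.31% in the Lhx9 state and 73.9 ± 14.2% in the Actc1 state, where Pfkp made up 13.8 ± 12.8%.

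The other upper steps varied less. Gpi1, which converts glucose 6-phosphate to fructose 6-phosphate, averaged 917 ± 243 CPM in the Lhx9 state, 1298 ± 734 CPM in the Actc1 state and 735 ± 335 CPM in the cells with neither. Aldoa, the aldolase of muscle and most embryonic cells, averaged 2838 ± 747, 3528 ± 1483 and 2590 ± 733 CPM in the same order. For both genes the Actc1 state had the highest mean and the largest SD, and neither passed 2-fold. Aldoc, the brain form, was detected in 33 cells and left Aldoa with 99.6 ± 0.687% of aldolase per length. Aldoc averaged 16.1 ± 26.5 CPM in the Lhx9 state and 39.7 ± 51.2 CPM in the cells with neither, but its median was 0 in both. Tpi1, triose phosphate isomerase, averaged 2239 ± 633, 1945 ± 960 and 1760 ± 651 CPM.

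The lower part of the pathway was nearly level across states. Gapdh ran from 5051 to 9305 CPM in the Lhx9 state (median 7148), from 3925 to 14145 CPM in the Actc1 state (median 6993) and from 4675 to 8776 CPM in the cells with neither (median 6373). The Actc1 state held both the lowest and the highest cell. Eno1 averaged 5541 ± 1211, 5439 ± 1806 and 4999 ± 1362 CPM, and Pkm, pyruvate kinase, 4448 ± 1054, 4342 ± 1255 and 3937 ± 1030 CPM. Pgk1 and Pgam1 were as level, with largest state means of 1207 ± 396 and 1858 ± 314 CPM in the Lhx9 state. Among the 9 abundant enzymes the largest ratio of state means was 1.27-fold between the Lhx9 state and neither (Tpi1), and 1.76-fold (Gpi1) and 1.41-fold (Gpi1) for the Actc1 state against neither and against the Lhx9 state. Reads of near-identical copies limit some of these values: sequences at least 95% identical to Eno1, mainly the retrocopy Eno1b, took 22.7% of the reads of Eno1 and its copies, those of Gapdh 13.5% and those of Pgam1 6.62%.

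Eno3 was the exception. It lies at chr11:70657202-70662513 (plus strand) and encodes the muscle enolase. Eno3 ran from 0 to 397 CPM in the Lhx9 state (median 70.1), from 71.7 to 939 CPM in the Actc1 state (median 373) and from 0 to 652 CPM in the cells with neither (median 142). Every Actc1-state cell had Eno3, and their median lay near the top of the Lhx9-state range. Mean Eno3 was 100 ± 103, 403 ± 193 and 196 ± 180 CPM, 4.02-fold higher in the Actc1 than in the Lhx9 state, and an Actc1-state cell was higher in 93.3% of pairs with a Lhx9-state cell. Unlike Hk1, Eno3 was similar in the Actc1-state cells below and above 2000 CPM of Actc1 (377 ± 188 and 419 ± 203 CPM). Even so Eno1 kept 90.4 ± 4.91% of enolase per length in the Actc1 state, against 97.5 ± 2.97% in the Lhx9 state. The 2.06-fold higher mean of the Actc1 state against the cells with neither dropped under 2-fold in 6 of 16 other settings, with log2 ratios from 0.68.

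**Figure D3:**
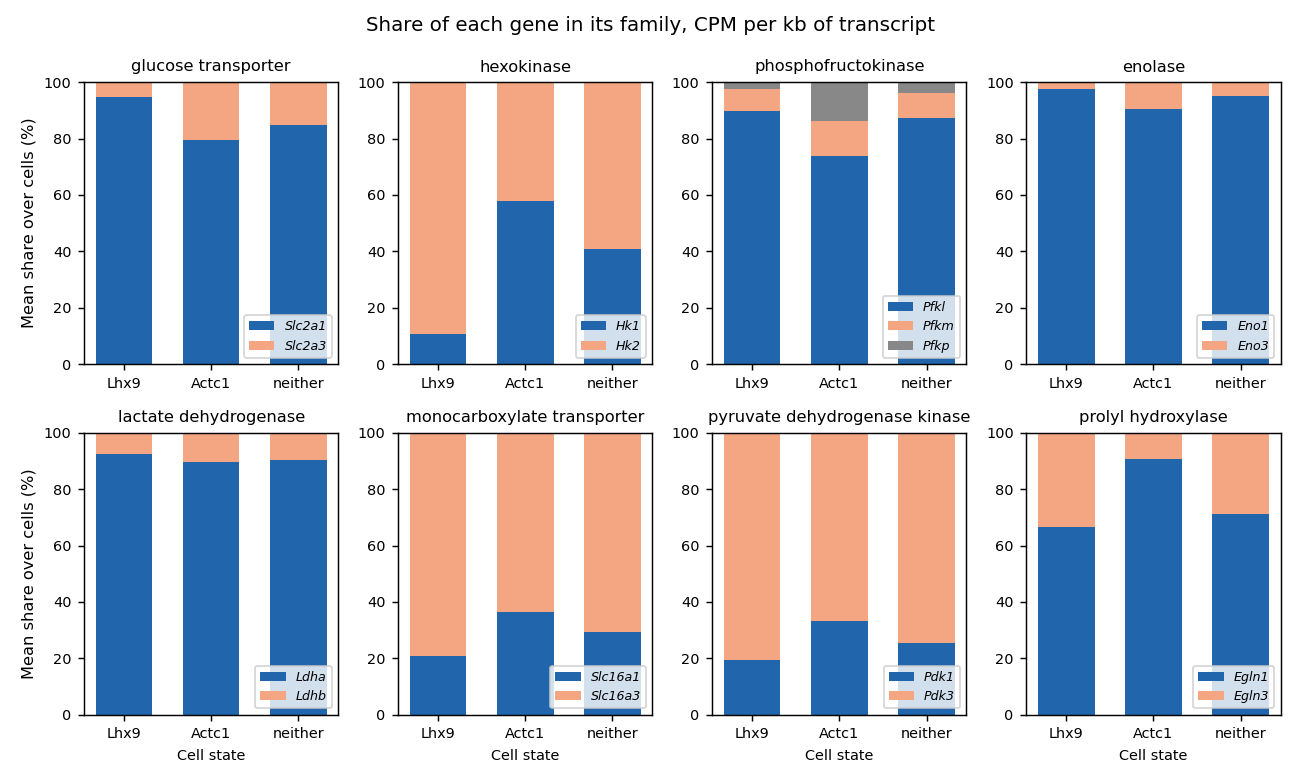
Mean share over cells (y axis, %) of each gene in its family, from CPM per kb of transcript, for 8 families in the Lhx9 state, the Actc1 state and the cells with neither. The hexokinase panel moves furthest, from 10.7% Hk1 in the Lhx9 state to 58.0% in the Actc1 state, and the lactate dehydrogenase panel hardly moves.

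Among genes of pyruvate fate, Ldha was the most abundant. Ldha ran from 1734 to 10747 CPM in the Lhx9 state (median 6242), from 1367 to 12261 CPM in the Actc1 state (median 5881) and from 1578 to 9121 CPM in the cells with neither (median 5089). Ldha exceeded Ldhb in 74 of 74 cells and made up 91.3 ± 6.56% of the pair per length, with the lowest cell at 60.9%. The share was 92.6 ± 5.29%, 89.7 ± 6.19% and 90.3 ± 8.46% in the Lhx9 state, the Actc1 state and the cells with neither. Pdha1, the catalytic subunit of pyruvate dehydrogenase, averaged 107 ± 49.7, 156 ± 81.4 and 88.6 ± 60.9 CPM. Per length the log2 ratio of Ldha to Pdha1 was 6.48 ± 1.38 and was above 0 in all 74 cells. It was 6.54 ± 1.20 in the Lhx9 state, 6.04 ± 1.62 in the Actc1 state and 6.79 ± 1.39 in the cells with neither. The highest value, 11.95, came from an Actc1-state cell with 0 CPM of Pdha1, so it depends on the 1 CPM per kb added. An mRNA ratio of this kind does not measure flux.

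Of the lactate carriers, Slc16a3 passed 2-fold, between the Lhx9 state and the cells with neither, and Slc16a1 did not. Slc16a3 (chr11:120948480-120960868, plus strand) encodes MCT4, the lactate exporter of glycolytic cells. It ran from 180 to 911 CPM in the Lhx9 state (median 533), from 64.1 to 752 CPM in the Actc1 state (median 248) and from 40.2 to 549 CPM in the cells with neither (median 255). Most Lhx9-state cells lay above the medians of the other states, and an Actc1-state cell was higher than a Lhx9-state cell in 17.1% of pairs. Mean Slc16a3 was 542 ± 175 CPM in the Lhx9 state, against 297 ± 187 and 249 ± 143 CPM, and was 2.18-fold higher than in the cells with neither. Slc16a1 (MCT1), which carries lactate either way, had medians of 116, 163 and 85.1 CPM. Per length Slc16a3 made up 79.1 ± 10.6% of the pair in the Lhx9 state and was the larger in all 32 cells, against 15 of 21 Actc1-state cells and 15 of 19 cells with neither. The mean Slc16a1 share over all cells, 27.2%, was 14.3% with the median length of coding transcripts.

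Pdk3 and Pdk1 encode kinases that switch pyruvate dehydrogenase off, and of these Pdk3 passed 2-fold, between the Actc1 and the Lhx9 state. Pdk3 ran from 25.1 to 339 CPM in the Lhx9 state (median 153), from 0 to 181 CPM in the Actc1 state (median 64.1) and from 0 to 154 CPM in the cells with neither (median 102). Some Lhx9-state cells lay above the highest cell of the other states, and the rest overlapped. The mean of 157 ± 70.1 CPM in the Lhx9 state compared with 77.3 ± 54.9 and 91.9 ± 43.1 CPM, a log2 ratio of Actc1 to Lhx9 state of -1.02 that stayed past 2-fold in 12 of 16 other settings. Pdk1 averaged 86.5 ± 56.4, 73.8 ± 51.0 and 66.6 ± 68.4 CPM, within 1 SD. Per length Pdk3 made up 75.2 ± 21.8% of the pair over all cells. Pfkfb3, whose product drives phosphofructokinase through fructose 2,6-bisphosphate, averaged 96.5 ± 75.9 CPM in the Lhx9 state, 64.1 ± 56.3 CPM in the Actc1 state and 42.6 ± 37.7 CPM in the cells with neither, with 1 Lhx9-state cell at 400 CPM. Pfkfb2, the heart form, was detected in 10 cells and reached 2-fold at means of 1.43 to 5.92 CPM.

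Hypoxia response genes formed a graded series in detection, from Hif1a and Bnip3 in 74 cells through Egln1 in 54 and Ankrd37 in 47 to the rarely detected genes given above. Hif1a was detected in all 74 cells and ran from 53.7 to 233 CPM in the Lhx9 state, from 70.5 to 367 CPM in the Actc1 state and from 30.7 to 281 CPM in the cells with neither. Its means of 137 ± 57.1, 173 ± 72.8 and 126 ± 62.7 CPM lay within 1 SD, and it held 98.8 ± 5.90% of the HIF alpha pair per length. HIF-1 is controlled chiefly through the stability of its protein, which was not measured. Bnip3 averaged 441 ± 242, 407 ± 383 and 367 ± 170 CPM and was present in every cell, with 1 Actc1-state cell at 1321 CPM. Ankrd37, an ankyrin-repeat HIF target, averaged 18.2 ± 20.3, 31.1 ± 42.5 and 14.0 ± 23.0 CPM. Egln1, the main oxygen sensor, averaged 23.9 ± 18.7, 30.5 ± 43.5 and 26.6 ± 24.3 CPM. Egln3, a sensor that HIF itself induces, averaged 11.8 ± 15.3 CPM in the Lhx9 state, 3.35 ± 11.1 CPM in the Actc1 state and 11.8 ± 19.0 CPM in the cells with neither, and was detected in 2 of the 21 Actc1-state cells.

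Counted by a 2-fold rule on mean CPM, 7 of 33 genes differed between the Lhx9 state and the cells with neither, where 17.3% of all 11511 compared genes did. Slc2a1, Slc16a3, Pfkfb3 and Car9 were higher in the Lhx9 state, where 7% of all genes were, and Hk1, Aldoc and Pfkfb2 lower, where 10.3% were. Between the Actc1 state and neither, 8 of 33 differed against 16.7% of all genes. Slc2a3, Hk1, Pfkp, Eno3 and Ankrd37 were higher (7.62% of all genes) and Pfkfb2, Egln3 and Ddit4 lower (9.09%). Between the Actc1 and the Lhx9 state, 7 of 33 differed against 18.5% of all genes, with Slc2a3, Hk1, Pfkm, Pfkp and Eno3 higher (10% of all genes) and Pdk3 and Egln3 lower (8.55%). Taken over both directions these counts are near the background. By direction, the higher counts lay above their background share in each comparison and the lower counts near or below it, on a few genes each. The part of cardiomyocyte and epicardial markers in these counts was not tested. Epas1 was not compared, because it had 5 counts in fewer than 10% of cells. The median log2 ratio of the 33 genes was 0.18, 0.22 and 0.03 in the 3 comparisons, against -0.06, -0.09 and -0.03 over all genes. The comparisons share cells, so they are not independent. Among genes detected in at least 50% of cells, 4, 5 and 6 of 28 members passed 2-fold, against 7.14%, 6.56% and 8.91% of all such genes, so with this filter the counts were above the background. The ranges of every member overlapped between states. The 2 cells that met both rules had 39.9 and 18.1 CPM of Hk1, 13.3 and 127 CPM of Eno3, 597 and 602 CPM of Slc16a3 and 128 and 112 CPM of Ldhb.

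**Figure D4:**
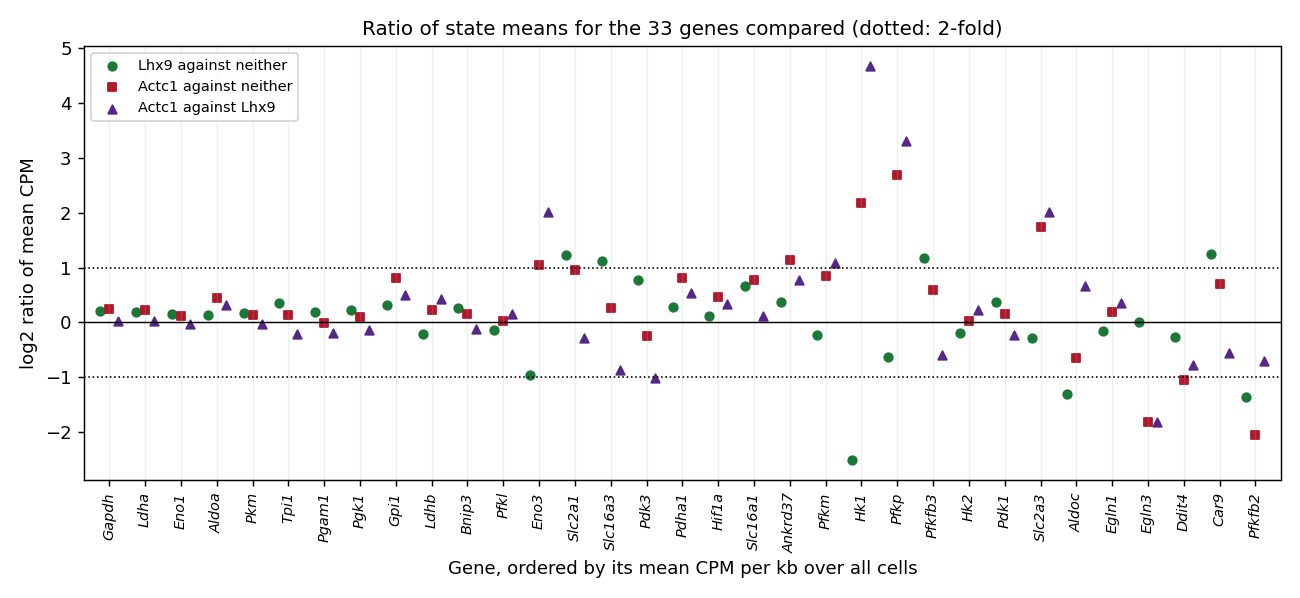
Log2 ratio of state means in CPM (y axis) for the 33 compared genes, ordered by level per length, in the 3 comparisons; dotted lines mark 2-fold. The abundant enzymes at the left lie within 1 log2 unit of 0, and Hk1 and Pfkp reach 4.68 and 3.32 for the Actc1 against the Lhx9 state.

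Genes of the same pathways outside the set gave the context. Of 14 compared further glycolytic and pentose phosphate genes, Slc2a4, Gapdhs and Pgam2 were past 2-fold higher in the Actc1 than in the Lhx9 state and none was lower, where 10% of all compared genes were higher and 8.55% lower. Against the cells with neither, 2 were higher and 3 lower in the Lhx9 state (7% and 10.3% of all genes), and 2 higher and 1 lower in the Actc1 state (7.62% and 9.09%). Pgam2, the muscle phosphoglycerate mutase, averaged 13.3 ± 16.4 CPM in the Lhx9 state, 364 ± 498 CPM in the Actc1 state and 48.2 ± 116 CPM in the cells with neither. In Actc1-state cells it averaged 64.2 ± 81.9 CPM below 2000 CPM of Actc1 and 549 ± 560 CPM above. Pfkfb1 was the higher in the Lhx9 state, with 35.3 ± 31.7 against 17.3 ± 23.9 CPM in the cells with neither. Tkt, transketolase of the pentose phosphate pathway, was the most abundant of that list with 308 ± 131 CPM.

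All 11 compared genes of the pyruvate oxidation list had a higher mean in the Actc1 than in the Lhx9 state. Their median log2 ratio was 0.36 against -0.03 over all genes, of which 47.5% had a higher mean. Compared with the cells with neither, 8 of the 11 had a higher mean in the Actc1 state (42.7% of all genes). In the Lhx9 state 4 had a higher and 7 a lower mean than in the cells with neither (45.1% and 54.9% of all genes). Between the Actc1 and the Lhx9 state, Pdk2 passed 2-fold (20.1 ± 29.6 against 8.73 ± 15.0 CPM). Like Pdk1 and Pdk3 it encodes a kinase that switches pyruvate dehydrogenase off, so the list mixes genes for and against oxidation. Citrate synthase, Cs, was the most abundant of the 11 and averaged 467 ± 137 CPM in the Actc1 state, 404 ± 110 CPM in the Lhx9 state and 305 ± 94.8 CPM in the cells with neither. All 11 compared genes of fatty acid oxidation were likewise higher in mean in the Actc1 than in the Lhx9 state, with a median log2 ratio of 0.81 against -0.03 over all genes. Cpt1b, Acadm, Acadl, Cd36 and Fabp3 were past 2-fold higher, where 10% of all genes were, and against the cells with neither Cpt1b, Cd36 and Fabp3 were, where 7.62% of all genes were. Acadl averaged 98.7 ± 64.6 against 48.9 ± 32.4 CPM in the Lhx9 state, and the fatty acid carriers Cd36 and Fabp3 24.4 ± 37.1 against 4.98 ± 16.0 CPM and 28.2 ± 51.3 against 7.64 ± 15.1 CPM. Cpt1b, the muscle carnitine palmitoyltransferase, averaged 82.9 ± 121 CPM against 3.56 ± 9.72 CPM. Within the Actc1 state it averaged 14.2 ± 23.7 CPM in the 8 cells below 2000 CPM of Actc1, with a median of 0, and 125 ± 137 CPM in the 13 cells above. Acadm, a medium-chain dehydrogenase gene, averaged 92.0 ± 54.7 against 40.1 ± 28.2 CPM. Etfb, an electron acceptor of that pathway and its most abundant gene here, averaged 402 ± 130 against 259 ± 87.5 CPM.

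Of 19 further compared hypoxia genes, 1 was higher and 2 lower past 2-fold in the Actc1 than in the Lhx9 state, against 10% and 8.55% of all genes. Adm, the vasoactive peptide adrenomedullin and a HIF target, averaged 8.90 ± 32.1 CPM in the Lhx9 state, 288 ± 306 CPM in the Actc1 state and 109 ± 146 CPM in the cells with neither. P4ha2, a collagen prolyl hydroxylase subunit that is also a HIF target, went the other way with 112 ± 81.4, 36.5 ± 35.8 and 76.9 ± 80.8 CPM. Bhlhe40 was the other gene lower in the Actc1 state. Bnip3l, the paralogue of Bnip3 and the most abundant of the list, averaged 256 ± 77.1, 336 ± 164 and 334 ± 144 CPM, so the HIF targets of this list did not share 1 direction. Against the cells with neither, 1 gene was higher and 1 lower in the Lhx9 state, where 7% and 10.3% of all genes were. They were Ak4, an adenylate kinase gene, with a log2 ratio of 1.05, and Adm. In the Actc1 state 1 was higher and 4 lower than in the cells with neither, where 7.62% and 9.09% of all genes were. Among the 4 was the histone demethylase gene Kdm3a (log2 ratio -1.18). Dissociation stress genes summed to 0.117 ± 0.0517%, 0.116 ± 0.0617% and 0.115 ± 0.0753% of counts in the 3 states, and mitosis genes to 0.226 ± 0.148%, 0.140 ± 0.158% and 0.215 ± 0.207%. All 10 mitosis genes had a lower mean in the Actc1 state than in either other state, with median log2 ratios of -0.68 against the Lhx9 state and -0.57 against the cells with neither, where 52.5% and 57.3% of all genes had a lower mean. Their sum was 0.227 ± 0.185% in the 8 Actc1-state cells below 2000 CPM of Actc1 and 0.0855 ± 0.116% in the 13 above. Of the 10, Plk1 passed 2-fold, lower in the Actc1 state (101 ± 155 CPM) than in the Lhx9 state (236 ± 253 CPM) and the cells with neither (225 ± 274 CPM). Of 9 compared stress genes, 3 were past 2-fold higher (Atf3, Hspa1a and Hspa1b) and 1 lower (Egr1) in the Lhx9 state against neither. The same genes passed 2-fold in the same directions in the Actc1 state against neither. Of all genes, 7% were higher and 10.3% lower in the first comparison, and 7.62% and 9.09% in the second. The near-equal stress sums thus held single genes that differed. Egr1 was higher in the Actc1 than in the Lhx9 state (22.1 ± 39.8 against 7.30 ± 16.8 CPM), where 10% of all genes were.

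The abundant enzymes varied together from cell to cell. The 9 enzymes above 300 CPM per kb, a cut-off chosen after the levels were seen, summed to 3.16 ± 0.889% of counts and ran from 1.40% to 5.68%, a 4.07-fold range. Their 36 pairs had a median Spearman rho of 0.73 over 74 cells, from 0.53 to 0.83. Gpi1 and Aldoa were the closest pair (rho 0.83), followed by Tpi1 and Ldha (0.80) and Pgk1 and Eno1 (0.79). Within states the median rho of the 36 pairs was 0.60 (Lhx9, 32 cells), 0.84 (Actc1, 21 cells) and 0.64 (neither, 19 cells), so the genes ran together within each state as well. Over all 19 members of at least 100 CPM the 171 pairs had a median rho of 0.27, and over all genes of at least 100 CPM the median was 0.00997. These values are descriptive: all genes of a cell share its library, depth and CPM denominator. All 9 enzymes had a negative rank correlation with total counts, from -0.23 (Aldoa) to -0.11 (Pgk1), and the part of depth in their co-variation was not tested.

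Other genes joined this group to different degrees. Pfkl had a median rho of 0.61 with the 9 enzymes and Bnip3 of 0.58, followed by Slc16a3 (0.48), Slc2a3 (0.48) and Pdk1 (0.43). Hif1a itself had 0.19 and Hk2 0.18, and Hk1 had 0.06. Slc2a1 and Slc16a3, the entry of glucose and the exit of lactate, ran together with rho 0.61. Eno3 had a median rho of -0.21 with the 9 enzymes over all cells, from -0.46 with Pgam1 to -0.01 with Gpi1. Within the Lhx9 state, the Actc1 state and the cells with neither the median was -0.29, -0.20 and -0.09, and in the cells with neither it was 0.17 with Gapdh. Its rho with Slc16a3 was -0.47 over all cells and -0.21, -0.12 and -0.26 within the states. Hk1 and Hk2 had a rho of 0.10.

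**Figure D5:**
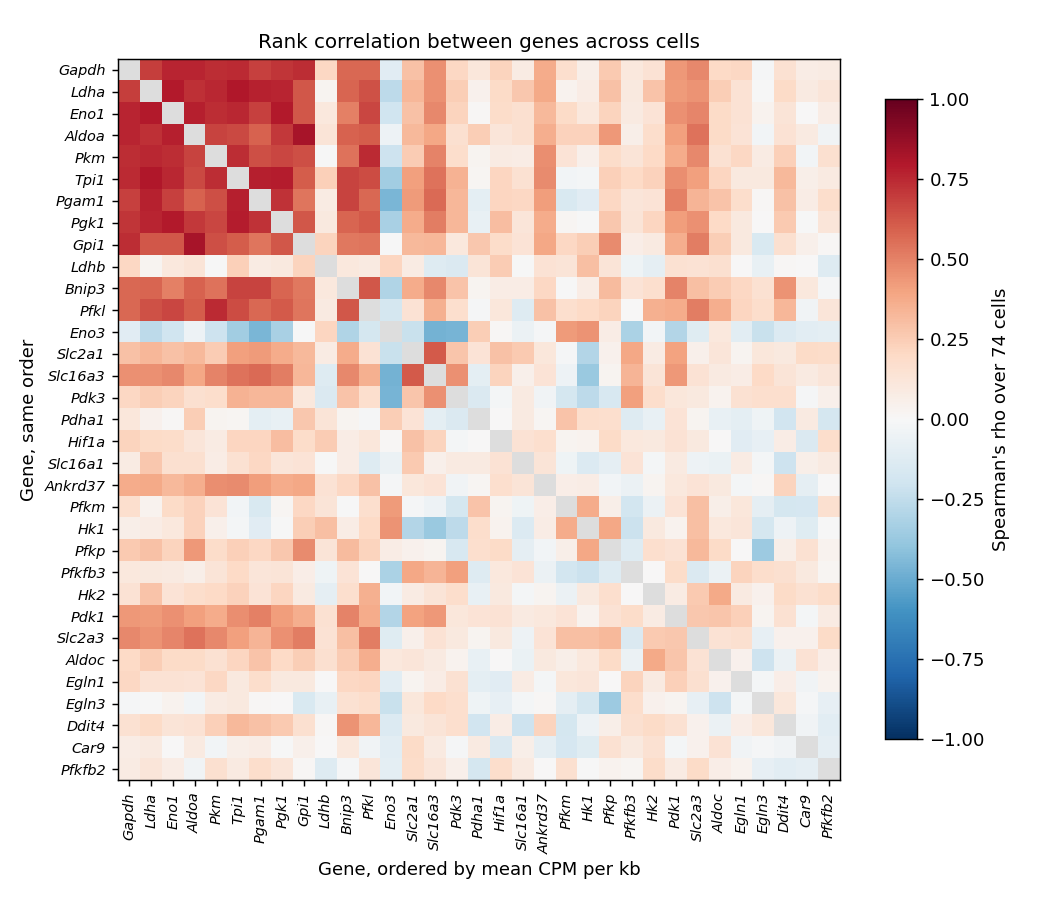
Spearman's rho over 74 cells (colour, -1 to 1) for each pair of the 33 compared genes, ordered by mean CPM per kb, with the diagonal in grey. The red block at the upper left is the 9 abundant enzymes, Bnip3 and Pfkl extend it, and the row of Eno3 holds most of the stronger negative values.

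The promoters of 4 genes of this block are shown to place the HIF core motifs beside genes that ran together. Each line gives the 250 bases before the RefSeq start (GRCm38.p6), read 5′ to 3′ on the gene's strand, with ACGTG and GCGTG on either strand in capitals. Ldha is at chr7:46845554-46845803 (plus strand), Pgk1 at chrX:106186850-106187099 (plus), Bnip3 at chr7:138909507-138909756 (minus) and Tpi1 at chr6:124814159-124814408 (minus). RefSeq and GENCODE place some starts differently. By GENCODE M21 the Ldha window lies inside the gene, which starts at 46841475, and the Tpi1 and Bnip3 windows overlap the 5′ ends of genes that reach to 124814296 and 138909519. The other strand of each motif reads CACGT or CACGC, and a palindromic CACGTG counts as 2 overlapping matches.
Ldha: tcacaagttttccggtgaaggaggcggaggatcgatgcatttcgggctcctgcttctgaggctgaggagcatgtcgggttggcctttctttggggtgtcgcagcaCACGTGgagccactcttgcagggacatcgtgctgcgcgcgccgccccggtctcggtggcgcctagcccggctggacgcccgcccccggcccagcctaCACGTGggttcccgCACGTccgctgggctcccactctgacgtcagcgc
Pgk1: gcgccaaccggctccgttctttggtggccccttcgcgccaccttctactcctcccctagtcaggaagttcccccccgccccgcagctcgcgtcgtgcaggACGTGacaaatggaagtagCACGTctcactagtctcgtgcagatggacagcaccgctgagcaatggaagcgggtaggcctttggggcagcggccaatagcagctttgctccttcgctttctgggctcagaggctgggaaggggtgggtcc
Bnip3: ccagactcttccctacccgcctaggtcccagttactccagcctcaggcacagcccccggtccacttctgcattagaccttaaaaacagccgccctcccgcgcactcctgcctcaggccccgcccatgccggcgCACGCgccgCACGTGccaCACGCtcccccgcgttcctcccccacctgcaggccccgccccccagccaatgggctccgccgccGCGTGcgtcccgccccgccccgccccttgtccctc
Tpi1: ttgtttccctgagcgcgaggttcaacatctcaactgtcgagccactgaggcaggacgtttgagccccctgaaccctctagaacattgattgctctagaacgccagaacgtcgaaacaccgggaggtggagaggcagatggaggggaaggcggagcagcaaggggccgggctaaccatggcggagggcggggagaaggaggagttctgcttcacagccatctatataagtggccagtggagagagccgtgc
Ldha held 5 ACGTG matches and no GCGTG, Pgk1 2 ACGTG, Bnip3 2 ACGTG and 3 GCGTG, and Tpi1 none of either. Tpi1 and Ldha, the windows with none and with 5 ACGTG, had a rho of 0.80 in level. Any relation between motif number and shared variation was not tested. The Ldha window shown is 1 of 2. Bases just after its start were not found in the Ldha transcript used for length. A window was found for 32 of 34 members, and Slc2a3 and Epas1 had none. Over the 300 bases from 250 before to 50 after the start, 23 of 32 members held ACGTG and 30 held either motif, with Gpi1 and Tpi1 as the 2 without. Of all 27025 genes with a window, 21.8% held ACGTG and 46.7% held either. Of 8903 that were also compared in these cells, 30.1% and 69.3% did. A gene with several windows counted if any of them matched. The 32 members had 47 windows, the 8903 compared genes 11466 and all 27025 genes 32851. Members thus had more windows per gene, for which the shares were not adjusted. The median GC content of member windows was 62.3%, against 61.3% for windows of compared genes and 52.7% for all windows. A match is a run of letters and not evidence of binding.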

How the data were processed

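RNA of 74 single sorted cells was sequenced after full-length amplification. The authors deposited 1 table of estimated counts, whole numbers without scaling for depth or length. How they were rounded was not stated. Per the submitters' processing notes kallisto was used (version not given in the sources used here) and the build was hg38, although all identifiers are mouse Ensembl genes. Names, positions and transcript lengths come from GENCODE M21 (GRCm38): 29857 of 30323 identifiers had a symbol there, and the 466 others held 0.357% of counts. Length is that of the principal coding transcript.

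Members, gene lists and rules were chosen with earlier results of these data known. Counts were scaled to CPM. A gene was detected at 5 counts and compared between states when detected in at least 10% of cells. State means were compared by a 2-fold rule without a test, since cells of 1 sample are not replicates. Family shares are per cell from CPM per kb, and log2 ratios add 1 CPM per kb. Intervals for counts of cells are exact (Clopper-Pearson, 95%) and cover counting error only. Reads carry no molecular identifiers and are not independent molecules. No cell was left out and no doublet caller was run, so the 2 cells that met both rules were kept apart. Named outside the set are genes of the fixed lists past 2-fold with at least 20 CPM in the higher state. Each list's most abundant gene is named too. Slc2a4, Gapdhs, Bhlhe40, Atf3, Hspa1a and Hspa1b were named after their values were seen, to complete counts.

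Near-identical copies were found by blastn 2.17.0 at 95% identity over 300 bases. Alternatives changed scaling (scran 1.30.0 pooled factors, edgeR 4.0.16 TMM), filters, detection counts, pseudocounts, depth (thinned to 354002 counts, which left out 8 cells), state thresholds, transcript lengths and promoter windows. The 2-fold rule was run on simulated Lhx9-state and Actc1-state cells, in which changed genes differed by more than 2-fold. That run does not cover changes near 2-fold or the cells with neither, and no result here rests on it. Software was R 4.3.3 and Python 3.11.15 with pandas 2.3.3, SciPy 1.17.1, matplotlib 3.10.9 and numpy 2.4.6.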

Additional observations from a re-analysis of the deposited data

How the results depend on the processing

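Of the recomputed values of the main results, 109 stayed within their spread, or within 1.5 times for counts, and 9 did not. Genes past 2-fold between the Lhx9 state and neither were 7, and 4 both among genes detected in at least 50% of cells and with 10 CPM added. Between the Actc1 state and neither they were 8, and 5 with the 50% filter, 4 with 10 CPM added, 4 with medians plus 1 CPM and 5 after thinning. Between the Actc1 and the Lhx9 state they were 7, and 4 with 10 CPM added. The Eno1 share of enolase was 94.9%, and 89.2% with the length of all exons merged. The median rho of the 9 enzymes was 0.73, and 0.84 within the Actc1 state, an alternative added after the data were seen. Of the recomputed ratios of the members past 2-fold, 311 stayed past 2-fold in the same direction, 41 came under it and 0 reversed. Hk1 in all 3 comparisons, Pfkp in both, Slc16a3, and Slc2a3 and Eno3 between the Actc1 and the Lhx9 state stayed past 2-fold in all 16 settings. Ddit4 (7 settings), Eno3 in the Actc1 state against neither (6), Pfkfb2 in the Lhx9 state against neither (5), and Car9 and Pdk3 (4 each) came under it most often. Leaving out each gene's highest cell in each state brought Pfkfb2 (log2 -0.58, Lhx9 against neither) and Ddit4 (log2 -0.75) under 2-fold. No paired analysis was possible because the labels hold 1 group. Depth limits genes of a few CPM: detection needs 5 counts whatever the depth, which was 849718 counts in the median cell, so a cell in which such a gene is not detected may still express it.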

Other observations

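Over 74 cells the summed level of 12 fatty acid oxidation genes had a Spearman rho of 0.63 with Actc1. That of 12 pyruvate oxidation genes, which include the opposing kinase gene Pdk2, had 0.62, and that of the 15 glycolytic enzymes 0.23. Single glycolytic genes had values of 0.50 (Eno3), 0.40 (Aldoa), 0.39 (Hk1) and 0.34 (Gpi1). The cells share library preparation and CPM denominator, and differences between these values were not tested. In the 13 cells with 2000 CPM or more of Actc1 fatty acid oxidation genes took 0.145 ± 0.0455% of counts and the 15 enzymes 3.11 ± 0.962%, against 0.108 ± 0.00891% and 2.40 ± 0.914% in the 8 cells with 500 to 2000 CPM. The 13 mitochondrially encoded respiratory chain genes took 2.00 ± 0.544% in the Lhx9 state, 2.24 ± 0.797% in the Actc1 state and 2.06 ± 0.912% in the cells with neither, which lie within 1 SD.

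Mitosis genes ran slightly against the enzymes: the rho of their sum was -0.27 with the 15 enzymes, -0.33 with Hk1 and -0.31 with Hk2 over 74 cells. Stress genes had a rho of 0.22 with the 15 enzymes. The part of either in the variation of the enzymes was not tested.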
